A study of Mus musculus with 14 samples.

Results

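The 10 Wnt ligand genes *Wnt3*, *Wnt3a*, *Wnt4*, *Wnt5a*, *Wnt6*, *Wnt7a*, *Wnt7b*, *Wnt10a*, *Wnt10b* and *Wnt16* were followed in epidermal stem cells (EpdSCs) of mouse back skin from the start to 12 weeks of induction of the transcription factor SOX9. They were taken by gene symbol from a table of 54332 genes, which holds all 19 mouse Wnt genes. Each member had 1 row.

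The mice were of the CD1 strain with the genotype K14rtTA; TRE-myc-Sox9 at every timepoint. In them the *Krt14* promoter drives the doxycycline-dependent activator rtTA in skin epithelium, and doxycycline (DOX) then turns on MYC-tagged SOX9. DOX was injected at P21 and kept in the feed. EpdSCs were sorted as CD49f-high, Ly6A-high and CD34-neg cells that lacked CD31, CD45, CD117 and CD140a, and their RNA was sequenced, with 2 biological replicates at each of 5 timepoints, 10 libraries in all. D0 is P21, the start of DOX, W1 is P28, W2 is P35 and W6 is P63. For W12, skin of newborn pups was grafted onto female Nude (immunocompromised) hosts and left to heal for 21 days before DOX, so grafting and host cannot be told apart from 12 weeks of SOX9. No skin without SOX9 induction was analysed here at the later ages, so age cannot be told apart from SOX9 either. In sorted bulk RNA, fewer cells of a type and less RNA per cell cannot be told apart.

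Wnt ligands are secreted, lipid-modified glycoproteins that bind Frizzled receptors together with LRP co-receptors, which stabilises β-catenin and turns on TCF/LEF target genes, or that act through receptors such as ROR and RYK without β-catenin. The acyltransferase PORCN attaches the lipid in the endoplasmic reticulum and the carrier WLS takes the ligand to the cell surface. In skin, basal epidermal cells make Wnt ligands and also respond to them, and Wnt signalling starts hair follicle placodes and the growth phase of the hair cycle.

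Several properties of the libraries bear on the ligands. The transgene transcript was at 89.6 and 45.6 TPM at D0, 3387 and 3414 at W1, 1892 and 1469 at W2, 1108 and 859 at W6, and 606 and 903 at W12. TPM is a share of the transcripts of a library corrected for transcript length, so levels can be set side by side between genes, but it carries no sequencing depth. The 7 basal epidermal markers summed to 46745 and 48529 TPM at D0, between 31948 and 35968 in the libraries of W1, W2 and W6, all below D0, and 44931 and 46753 at W12, nearly all of it *Krt14* and *Krt5*. Called singly against D0, none of the 7 was called at W1 by limma (2 had an unadjusted p under 0.05), *Ly6a* was lower at W2, and 6 of the 7 were lower at W6 (all but *Krt14*), against 14.1% of all genes tested, and at W12, 4 were lower (*Krt5*, *Trp63*, *Itgb4* and *Col17a1*), against 25.1%, and *Ly6a* was higher. The 6 suprabasal markers summed to 5784 and 1909 TPM at D0, between 3754 and 7344 at W1 and W2, 11899 and 12503 at W6, and 13555 and 11941 at W12, mostly *Krtdap*, and of the 6, 2 were called higher at W1 (*Ivl* and *Sbsn*), against 5.79% of all genes, 1 at W2 (*Ivl*), against 9.06%, and 3 at W6 and W12 (*Ivl*, *Krtdap* and *Sbsn*), against 18.3% and 17.9%, while *Lor* was lower at W12. The 7 markers of hair follicle bulge and outer root sheath summed to 239 and 309 TPM at D0 and to between 322 and 569 in the later libraries, all above D0. Of the 6 that were tested, 1 was higher at W1 (*Nfatc1*), against 5.79% of all genes, 2 at W2 (*Nfatc1* and *Tcf7l1*), against 9.06%, and 1 each at W6 and W12 (*Cd34*), against 18.3% and 17.9%, while *Nfatc1* and *Krt24* were lower at W12, against 25.1%. *Cd34* was at 16.5 and 32.0 TPM in the W12 libraries although the sort was CD34-neg. Hair matrix and shaft markers summed to 8.94 and 12.8 TPM at D0 and to between 2.19 and 7.99 in the later libraries, all below D0. *Msx2*, the only 1 of them tested, was called lower at W12, against 25.1% of all genes. Schwann markers summed to at most 2.27 TPM in any library. The part of these cells in the ligand levels was not tested. A list of 18 immediate-early and stress genes (*Fos*, *Jun*, *Egr1* and others), chosen after the data had been seen, summed to 33698 and 53910 TPM in the D0 libraries and to between 6432 and 14666 in the later ones, and of the 18, 13 were called lower at W1 (against 4.1% of all genes), 11 at W2 (6.64%), 13 at W6 (14.1%) and 14 at W12 (25.1%). Of the same list *Hspa1a* was higher at W2 and *Ier3* at W12. The part of these genes in any difference from D0 was not tested. D0 replicate 2 is labelled male but listed *Xist* at 4.61 TPM and 4 Y-linked genes near 0, and the W12 libraries listed *Xist* at 5.51 and 3.50 TPM together with the Y-linked genes (*Eif2s3y* at 22.9 and 29.9). Results are therefore also given without D0 replicate 2.

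Promoters are shown for *Wnt3a*, whose level was lowest relative to D0 of the 9 tested ligands at W1, for *Wnt6*, which fell step by step, and for *Wnt16*, which held its level until W2. RefSeq promoters (GRCm38.p6, 300 bases around each gene's start) matched 7 of the 10 members. *Wnt5a*, *Wnt7b* and *Wnt10a* were without an entry. Each sequence reads 5′ to 3′ on the strand of its gene, and capitals mark CpG dinucleotides. The *Wnt3a* promoter lies at chr11:59290702-59291001 on the minus strand, the *Wnt6* promoter at chr1:74771642-74771941 on the plus strand and the *Wnt16* promoter at chr6:22287977-22288276 on the plus strand.
Wnt3a: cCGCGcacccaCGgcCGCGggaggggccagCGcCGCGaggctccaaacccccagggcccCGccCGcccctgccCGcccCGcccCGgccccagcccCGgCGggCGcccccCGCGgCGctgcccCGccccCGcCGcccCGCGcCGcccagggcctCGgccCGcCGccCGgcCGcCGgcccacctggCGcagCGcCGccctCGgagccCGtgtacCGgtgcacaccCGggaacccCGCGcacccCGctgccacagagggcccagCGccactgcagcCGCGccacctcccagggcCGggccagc
Wnt6: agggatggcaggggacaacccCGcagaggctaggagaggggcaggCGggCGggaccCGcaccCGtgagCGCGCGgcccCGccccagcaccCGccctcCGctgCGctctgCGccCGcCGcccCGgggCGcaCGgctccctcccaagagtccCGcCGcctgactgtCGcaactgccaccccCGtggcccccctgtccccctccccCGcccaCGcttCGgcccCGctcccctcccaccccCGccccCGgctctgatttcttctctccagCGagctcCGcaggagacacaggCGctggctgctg
Wnt16: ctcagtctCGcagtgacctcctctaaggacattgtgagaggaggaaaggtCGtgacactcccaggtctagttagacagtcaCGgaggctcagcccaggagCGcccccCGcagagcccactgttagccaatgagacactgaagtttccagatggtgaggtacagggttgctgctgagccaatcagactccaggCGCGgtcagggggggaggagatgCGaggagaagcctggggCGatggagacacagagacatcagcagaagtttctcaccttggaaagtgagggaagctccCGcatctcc
*Wnt3a* held 45 CpG and 86.3% G+C, *Wnt6* 31 CpG and 76.7%, and *Wnt16* 10 CpG and 58%, against medians of 7 CpG and 52.7% over all 32851 promoters of this length. The other 4 matched members held between 18 CpG (*Wnt10b*) and 51 CpG (*Wnt4*). Of 4 short motifs searched on both strands, the SOX core ACAAT was found in 1 of the 7 promoters, that of *Wnt16*, where it reads ATTGT, against 31% of all promoters. The TCF/LEF motif CTTTGA (16% of all promoters), the GATA motif GATAA (25.4%) and the AP1 motif TGANTCA (7.81%) had no match in the 7, so no motif overlapped another. Only these letters were searched, so other forms of each motif may be present. A match in these 300 bases is a description of the letters and not a binding site.

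In D0 EpdSCs the 10 ligands summed to 683 and 836 TPM. The sum was 464 and 445 TPM at W1, 296 and 275 at W2, 209 and 223 at W6, and 209 and 223 at W12. Every later library was below both D0 libraries, and the mean sum at W6 was 28.4% of that at D0. *Wnt10a* was the most abundant ligand at each timepoint, with a mean of 313 TPM at D0, followed by *Wnt3* (141), *Wnt7b* (109), *Wnt4* (104), *Wnt6* (37.7), *Wnt3a* (25.2), *Wnt16* (14.5), *Wnt5a* (11.2), *Wnt10b* (2.48) and *Wnt7a* (1.79). In this order only the neighbours *Wnt7b* and *Wnt4* had overlapping replicates at D0. Both D0 libraries exceeded all 8 later libraries for 7 of the 10 ligands (*Wnt3*, *Wnt3a*, *Wnt4*, *Wnt6*, *Wnt7a*, *Wnt7b* and *Wnt10b*), as they did for 8.31% of the 13110 genes tested. *Wnt7a* is not among these 13110 genes, whose mean was at least 1 TPM, and *Wnt10b* is among them through its D0 level.

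**Figure D1:**
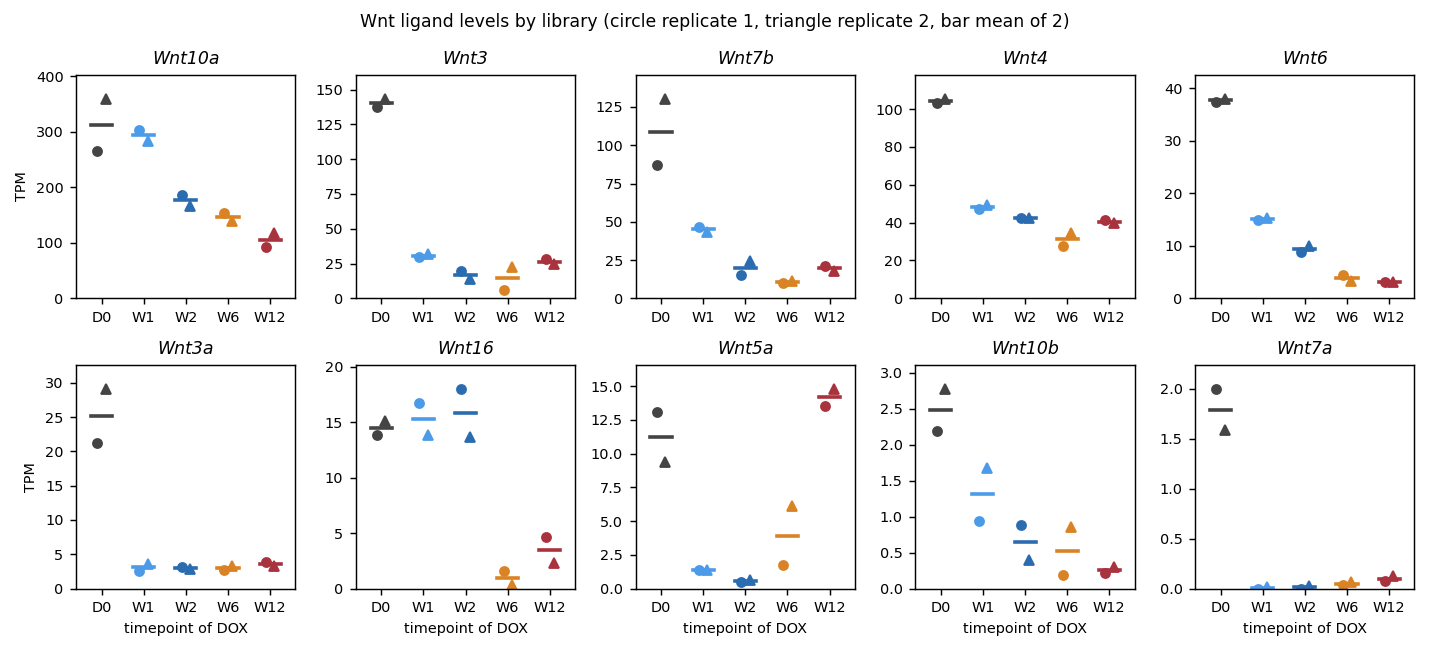
TPM of each ligand (y axes, linear and starting at 0, each panel with its own range) in the 2 libraries of each timepoint, with replicate 1 as a circle, replicate 2 as a triangle and the mean as a bar. *Wnt3a* dropped from 21.2 and 29.1 TPM to 2.59 and 3.57 at W1 and stayed there, *Wnt16* dropped only between W2 and W6, and *Wnt5a* was back at 13.6 and 14.8 TPM at W12.

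Each ligand with a mean of at least 1 TPM was tested on log2(TPM + 1) with limma, together with all other genes at that level, and called at a Benjamini-Hochberg adjusted P under 0.05 over all of them. On this scale the change of a lowly expressed gene is understated. *Wnt7a* was under the minimum, so 9 ligands were tested. *Wnt10b* averaged 1.04 TPM over the 10 libraries, with 2.48 at D0 and 1.31, 0.642, 0.521 and 0.256 later. It passed the minimum through its D0 level, so the filter favours its calls as lower, which are counted below. Without the filter its calls by the F test, at W2 and at W6 were lost, and that at W12 held. By the F test over the 5 timepoints all 9 tested ligands were called, against 57.5% of all genes tested. At W1, 6 of the 9 were lower than at D0 (*Wnt3*, *Wnt3a*, *Wnt4*, *Wnt5a*, *Wnt6* and *Wnt7b*) and none was higher, against 4.1% of all genes called lower. At W2, 8 of the 9 were lower (all but *Wnt16*), against 6.64% of genes. At W6 all 9 were lower, against 14.1%, and at W12, 8 of the 9 were lower (all but *Wnt5a*), against 25.1%. The median log2 change of the tested ligands was −1.22 for W1, −1.90 for W2, −2.72 for W6 and −1.85 for W12, whereas that of all genes tested was 0.09, 0.06, 0.08 and −0.08. These 4 comparisons share the D0 libraries and are not independent. Without D0 replicate 2 the called ligands were 4 (W1), 6 (W2), 7 (W6) and 8 (W12). Without W1 replicate 2 the count at W1 was 3, namely *Wnt3a*, *Wnt4* and *Wnt6*. The same 3 of the 9 were called at W1 when all genes above 0 TPM were fitted, where *Wnt3* (adjusted P = 0.121), *Wnt5a* (adjusted P = 0.0535) and *Wnt7b* (adjusted P = 0.0926) lost their calls.

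**Figure D2:**
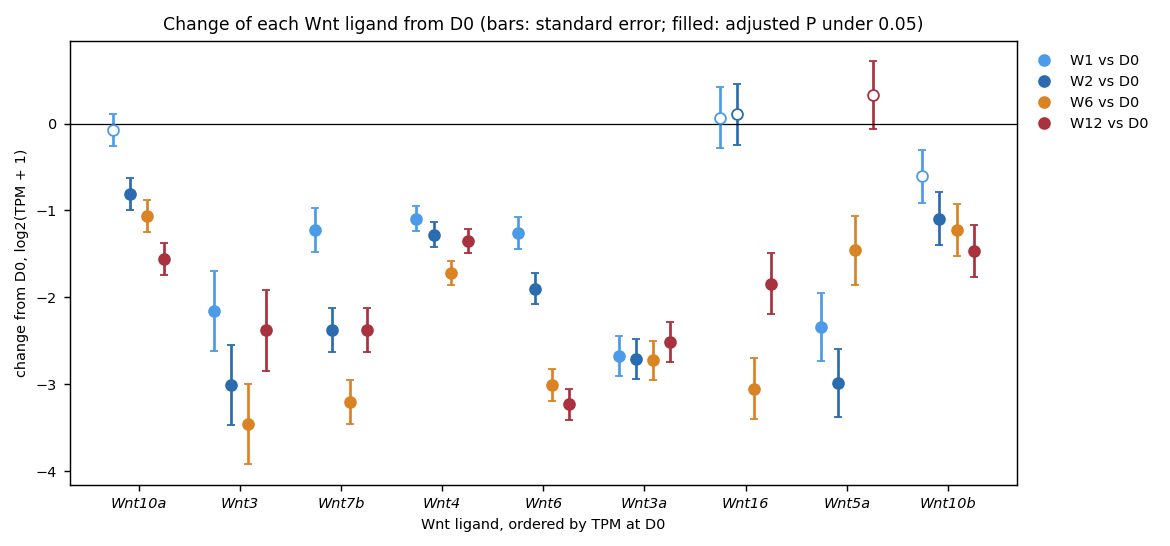
Change from D0 on log2(TPM + 1) for the 9 tested ligands (x axis, ordered by level at D0) for the comparisons of W1, W2, W6 and W12 with D0, with the standard error of limma as bars and filled points for an adjusted P under 0.05. The open points are *Wnt10a*, *Wnt16* and *Wnt10b* at W1, *Wnt16* at W2 and *Wnt5a* at W12, and every filled point is below 0.

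*Wnt3a* and *Wnt3* are ligands known for signalling through β-catenin, and they were the ligands with the steepest early change among those with over 20 TPM at D0. *Wnt3a* (GRCm38 chr11:59248033-59290752, minus strand, protein coding) was at 21.2 and 29.1 TPM at D0, 2.59 and 3.57 at W1, 3.12 and 2.80 at W2, 2.64 and 3.22 at W6, and 3.80 and 3.27 at W12. All later libraries lay far below both D0 libraries and close to each other, at 11.6% to 14.0% of the D0 mean by timepoint. Its log2 change was −2.68 (SE 0.23, adjusted P = 0.00038) at W1 and −2.52 (SE 0.23, adjusted P = 9.06e-05) at W12. Between later timepoints the change of *Wnt3a* stayed between −0.03 and 0.21, with no call. *Wnt3* (chr11:103774150-103817957, plus strand) was at 138 and 144 TPM at D0, 29.9 and 31.6 at W1, 19.9 and 13.9 at W2, 5.96 and 22.8 at W6, and 28.2 and 24.4 at W12. The later libraries of *Wnt3* did not reach the D0 libraries at any time, and the W6 replicates were the furthest apart of any timepoint. The log2 change was −2.16 (SE 0.46, adjusted P = 0.0212) at W1, −3.01 (adjusted P = 0.00376) at W2, −3.46 (adjusted P = 0.00112) at W6 and −2.38 (adjusted P = 0.00402) at W12. Leaving out any 1 of the 4 libraries of D0 and W1 ended the W1 call of *Wnt3*, with adjusted P of 0.0543 and 0.0805 without D0 replicates 1 and 2, and of 0.104 and 0.123 without W1 replicates 1 and 2, at log2 changes of −2.12 to −2.20.

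*Wnt10a* and *Wnt10b* are close relatives that activate β-catenin and are known from hair follicle and tooth development. Human WNT10A is a gene of ectodermal dysplasias. *Wnt10a* (chr1:74791516-74804179, plus strand) was at 265 and 360 TPM at D0, 303 and 284 at W1, 187 and 166 at W2, 154 and 140 at W6, and 92.7 and 117 at W12. The W1 libraries lay within the range of D0, and those of W2, W6 and W12 lay below it in that order without overlap. The log2 change was −0.07 (SE 0.18, adjusted P = 0.853) at W1, −0.81 (adjusted P = 0.02) at W2, −1.07 (adjusted P = 0.00345) at W6 and −1.56 (adjusted P = 0.000353) at W12. The W2 call of *Wnt10a* was lost without D0 replicate 2 (−0.59, adjusted P = 0.0725), W2 replicate 1 (adjusted P = 0.0766) or W2 replicate 2 (adjusted P = 0.148).

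*Wnt10b* (chr15:98770712-98778150, minus strand) was at 2.19 and 2.78 TPM at D0, 0.938 and 1.68 at W1, 0.882 and 0.401 at W2, 0.188 and 0.853 at W6, and 0.210 and 0.301 at W12. Both D0 values were the highest of the 10, but the W1, W2 and W6 replicates differed from each other by up to several fold at these low levels. Its log2 change was −0.61 (SE 0.30, adjusted P = 0.249) at W1 and −1.47 (adjusted P = 0.00533) at W12. *Wnt10b* passed the minimum of 1 TPM through its D0 level, so the filter favours its calls as lower than D0. The W2 call of *Wnt10b* (−1.10, adjusted P = 0.0419) was lost without any 1 of the D0 or W2 libraries, at adjusted P of 0.0637 to 0.263, and its W6 call (−1.23, adjusted P = 0.0159) without D0 replicate 2 (adjusted P = 0.0878) or W6 replicate 1 (adjusted P = 0.0585).

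*Wnt6* is a ligand of surface ectoderm, and its gene lies next to *Wnt10a* with a gap of 6193 bp and no protein-coding gene between them. *Wnt6* (chr1:74771892-74785322, plus strand) was at 37.4 and 38.1 TPM at D0, 14.9 and 15.4 at W1, 8.75 and 10.05 at W2, 4.49 and 3.23 at W6, and 3.19 and 3.05 at W12. The 5 timepoints followed each other downward with no overlap between neighbours. At W12 the mean was 8.28% of that at D0, and the log2 change was −1.26 (SE 0.18, adjusted P = 0.00376) at W1, −1.90 (adjusted P = 0.000461) at W2, −3.01 (adjusted P = 4.58e-05) at W6 and −3.23 (adjusted P = 1.02e-05) at W12. The step from W2 to W6 was −1.11 (adjusted P = 0.00813), which was lost without W2 replicate 1 (adjusted P = 0.0619) or W2 replicate 2 (adjusted P = 0.0773). *Wnt6* and *Wnt10a* thus differed in time course although they are neighbours, since *Wnt6* was already at 40.2% of its D0 mean at W1 where *Wnt10a* was at 94.0%. The difference between these 2 changes was not tested.

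*Wnt7b* and *Wnt7a* are closely related ligands, *Wnt7b* known from lung and hair follicle and *Wnt7a* from limb patterning. *Wnt7b* (chr15:85535437-85582473, minus strand) was at 86.8 and 131 TPM at D0, 46.9 and 43.4 at W1, 15.6 and 24.7 at W2, 9.97 and 11.4 at W6, and 21.4 and 18.1 at W12. Its lowest libraries were those of W6, and the W12 libraries lay above them and below those of W1. The log2 change was −1.22 (SE 0.25, adjusted P = 0.0188) at W1, −2.38 (adjusted P = 0.00069) at W2, −3.20 (adjusted P = 9.96e-05) at W6 and −2.38 (adjusted P = 0.000214) at W12. The W1 call of *Wnt7b* was lost without D0 replicate 2 (−0.93, adjusted P = 0.0818), W1 replicate 1 (adjusted P = 0.0822) or W1 replicate 2 (adjusted P = 0.136). *Wnt7a* (chr6:91363981-91411363, minus strand) was at 2.00 and 1.58 TPM at D0, was listed at 0 and 0.0181 at W1 and at 0 and 0.0215 at W2, and was at 0.0358 and 0.0636 at W6 and 0.0749 and 0.126 at W12. The D0 libraries were the only ones above 1 TPM. With all genes above 0 in the fit, its log2 change was −1.46 (adjusted P = 0.00518) at W1 and −1.34 (adjusted P = 0.00118) at W12.

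*Wnt4* is a ligand known from kidney and gonad development that can act with or without β-catenin. *Wnt4* (chr4:137277489-137299726, plus strand) was at 103 and 106 TPM at D0, 47.5 and 49.3 at W1, 42.2 and 42.7 at W2, 27.7 and 34.5 at W6, and 41.1 and 39.6 at W12. Its replicates were close at each timepoint, and the later libraries kept between 29.8% and 46.3% of the D0 mean by timepoint, which left *Wnt4* second to *Wnt10a* from W1 on. Against D0, *Wnt4* changed by −1.09 (SE 0.14, adjusted P = 0.00229) at W1, −1.28 (adjusted P = 0.000817) at W2, −1.72 (adjusted P = 0.000112) at W6 and −1.35 (adjusted P = 0.000191) at W12.

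*Wnt16* is a ligand known from bone and joint tissue. *Wnt16* (chr6:22288227-22298522, plus strand) was at 13.9 and 15.1 TPM at D0, 16.7 and 13.9 at W1, 18.0 and 13.7 at W2, 1.57 and 0.358 at W6, and 4.67 and 2.27 at W12. The D0, W1 and W2 libraries overlapped, and the W6 and W12 libraries lay below all of them. *Wnt16* differed from D0 by 0.07 (SE 0.35, adjusted P = 0.935) at W1 and 0.11 (adjusted P = 0.871) at W2, then −3.05 (adjusted P = 0.000558) at W6 and −1.85 (adjusted P = 0.00362) at W12. Taken from W2 to W6, *Wnt16* fell by 3.16 on the log2 scale (adjusted P = 0.00205). From W6 to W12 it was 1.21 higher (adjusted P = 0.0425), a call that was lost without W6 replicate 2 (0.75, adjusted P = 0.16) or W12 replicate 1 (0.81, adjusted P = 0.269).

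*Wnt5a* is the best known ligand that acts without β-catenin, through ROR receptors. *Wnt5a* (chr14:28504750-28527448, plus strand) was at 13.1 and 9.36 TPM at D0, 1.40 and 1.38 at W1, 0.450 and 0.610 at W2, 1.71 and 6.10 at W6, and 13.6 and 14.8 at W12. It was low in all W1 and W2 libraries, unequal between the W6 replicates, and above both D0 libraries at W12. For *Wnt5a* the log2 change was −2.34 (SE 0.39, adjusted P = 0.00753) at W1, −2.98 (adjusted P = 0.00181) at W2, −1.46 (adjusted P = 0.0223) at W6 and 0.33 (adjusted P = 0.526) at W12. *Wnt5a* was 1.52 higher at W6 than at W2 (adjusted P = 0.0353) and 1.79 higher at W12 than at W6 (adjusted P = 0.0161). From W2 to W6 the call was lost without W2 replicate 1 (adjusted P = 0.177), W2 replicate 2 (adjusted P = 0.134) or W6 replicate 2 (0.83, adjusted P = 0.0792), and from W6 to W12 without W12 replicate 1 (adjusted P = 0.0913) or W12 replicate 2 (adjusted P = 0.0816). The W1 call was lost without W1 replicate 2 (adjusted P = 0.0611). The W6 call against D0 was lost without D0 replicate 1 (adjusted P = 0.0838), D0 replicate 2 (adjusted P = 0.054) or W6 replicate 1 (−0.77, adjusted P = 0.0501).

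Fibroblast, endothelial, immune and melanocyte markers were, like *Wnt5a*, higher at W12 than at W1 and W2. They did not all follow it at D0 and W6. The 6 fibroblast and dermal papilla markers summed to 52.2 TPM in W6 replicate 2 and 1.68 in W6 replicate 1, to 13.7 and 28.1 at W12, and to at most 4.06 elsewhere. Nearly all of this was *Dcn*, at 51.2, 13.2 and 27.2 TPM in the 3 libraries with the higher sums, whereas *Pdgfra*, *Col1a1*, *Col1a2*, *Col3a1* and *Lum* were each under 1 TPM in them. The 3 endothelial markers summed to 28.9 and 66.8 TPM at W12 and to at most 1.35 elsewhere, although CD31, the product of *Pecam1*, was used to exclude cells. The 5 immune markers summed to 147 and 162 TPM at W12, mostly *Cd74* and *H2-Aa*, with *Ptprc* at 0.0184 and 0.327 TPM. Their sum was 5.03 and 4.53 at W6 and between 20.2 and 35.9 elsewhere. Of the 2 tested, *H2-Aa* was called higher than at D0 at W1 (against 5.79% of all genes) and W2 (9.06%). Both *Cd74* and *H2-Aa* were lower at W6 (14.1%) and higher at W12 (17.9%). At D0, where *Wnt5a* was also high, the fibroblast list summed to 1.70 and 4.06 TPM. The 5 melanocyte markers summed to 12.5 and 10.9 TPM at W12, 4.48 and 11.7 at W6, and 6.23 and 5.38 at W2, and to at most 4.89 at D0 and W1, with *Dct* and *Tyrp1* called higher at W12 although CD117 was used to exclude cells. The part of these cells in the level of *Wnt5a* at W6 and W12 was not tested.

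**Figure D3:**
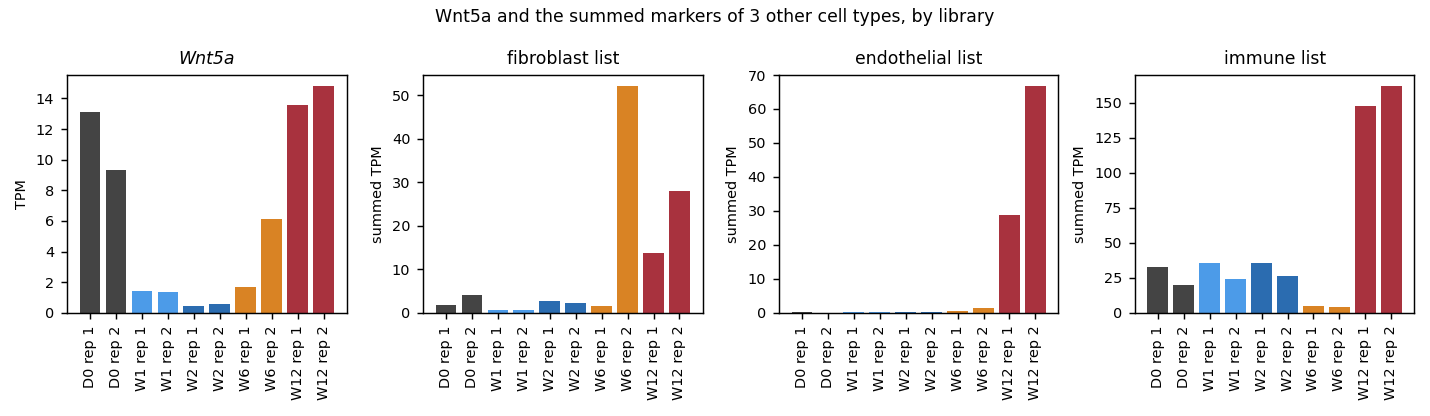
*Wnt5a* (TPM, left panel) and the summed TPM of the fibroblast, endothelial and immune marker lists in each of the 10 libraries (bars, axes from 0). *Wnt5a* was high in the D0 libraries, where the fibroblast and endothelial sums were at most 4.06 TPM, and in the W12 libraries, where all 3 sums were above those of D0.

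Between successive later timepoints few ligands were called. From W1 to W2 none of the 9 was called by limma, as 0.114% of all genes were, while 3 had an unadjusted p under 0.05 (*Wnt6*, *Wnt7b* and *Wnt10a*), and none was called in any of the alternative fits. From W2 to W6, *Wnt16* and *Wnt6* were lower, against 8.31% of genes called lower, and *Wnt5a* was higher, against 7.99% called higher. The count was 1 without W2 replicate 1 and 1 without W2 replicate 2. From W6 to W12, *Wnt5a* and *Wnt16* were higher, against 6.66% of genes called higher. None was called without W12 replicate 1 and 1 without W12 replicate 2. Over all genes the median change of this step was −0.16, or −0.01 once the libraries were scaled by median ratios, and the share of its calls that were higher was 33.0%, or 55.0% so scaled. Under median-ratio scaling *Wnt4* was also called lower from W2 to W6 (−0.46, adjusted P = 0.0441), and *Wnt4* (0.54, adjusted P = 0.0261) and *Wnt7b* (0.99, adjusted P = 0.0393) were also called higher from W6 to W12. Under quantile scaling *Wnt4* and *Wnt7b* were likewise called higher and *Wnt16* was not (1.31, adjusted P = 0.0604).

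The make-up of the ligand sum changed between timepoints, also from W6 to W12, when the mean sum was 216 TPM at both. *Wnt10a* made up 41.0% of the summed TPM at D0 on the mean of the 2 libraries, 64.7% (W1), 61.8% (W2), 68.4% (W6) and 48.4% (W12) later. *Wnt3* went from 18.7% at D0 to 6.78% at W1 and stood at 12.2% at W12. *Wnt5a* made up 1.52% at D0, 0.187% at W2 and 6.57% at W12. In the W12 libraries the order was *Wnt10a*, *Wnt4*, *Wnt3*, *Wnt7b* and *Wnt5a*, each apart from its neighbour, followed by *Wnt3a*, *Wnt16* and *Wnt6*, whose replicates overlapped from each to the next.

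**Figure D4:**
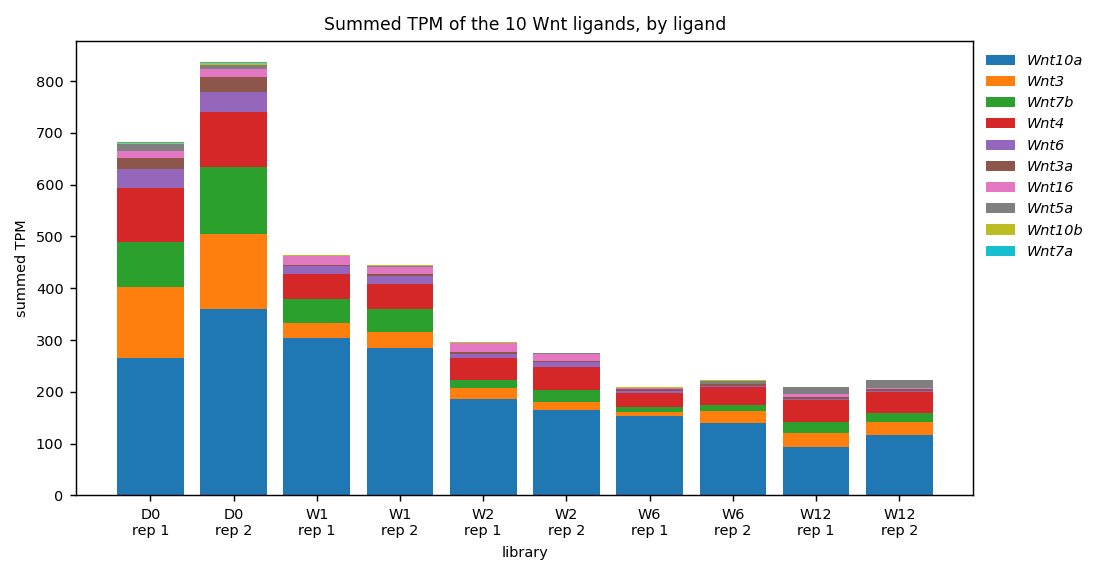
Summed TPM of the 10 ligands in each library (stacked bars from 0, 1 colour per ligand). The sum fell from 683 and 836 TPM at D0 to 209 and 223 at W12, with *Wnt10a* as the largest share in every library.

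Shared sequence and overlapping genes can move reads between genes. No 31-base stretch of a member's transcripts (GENCODE M21) was shared with another Wnt gene, and the share of a member's 31-base stretches found in any other gene was at most 6.62% (*Wnt4*). *Wnt5a*, *Wnt6* and *Wnt7b* overlap an annotated antisense gene each (*Gm2670*, *Gm29539* and *AU022754*). Without knowledge of the strand setting, reads of such a pair cannot be told apart. The 3 antisense genes were listed at 0.551 TPM or less, and their part in the ligand levels was not tested. *Wnt3* and *Wnt3a* each have a Wnt gene as a neighbour, *Wnt9b* at 24328 bp and *Wnt9a* at 16175 bp, and *Wnt10b* has *Wnt1* at 11706 bp.

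Of the 9 Wnt genes outside the list, 2 had a mean of at least 1 TPM. *Wnt11* was at 24.8 and 11.2 TPM at D0, 19.9 and 15.1 at W1, 23.5 and 14.2 at W2, 3.28 and 8.67 at W6, and 8.55 and 13.1 at W12. It was lower at W6 (−1.46, adjusted P = 0.0431) and was not called at W1, W2 or W12. The W6 call was lost when all genes above 0 TPM were fitted (adjusted P = 0.148), and *Wnt11* was not called by the F test (adjusted P = 0.0635). *Wnt5b* was called at no timepoint. The other 7 had a mean under 1 TPM. With all genes above 0 TPM fitted by limma, *Wnt9b* (at most 0.333 TPM) was lower than at D0 at W1 (−0.37, adjusted P = 0.0179), W2 (−0.31, adjusted P = 0.0239) and W6 (−0.38, adjusted P = 0.00705). *Wnt2* was at 2.41 and 0.948 TPM at D0 and at most 0.507 later, and was lower at W6 (−1.29, adjusted P = 0.035). The rest of the 7 were not called against D0 in that fit.

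The genes whose levels were most like those of a ligand were found by Pearson's r of log2(TPM + 1) over the 10 libraries, a description with no test, in which all genes share the libraries and any step from D0 raises r. *Wnt3a* was most like *Cdh4* (0.997), *Il12rb2* (0.993) and *Plcxd2* (0.991). *Wnt6* was most like *Krt5* (0.982), *Akap10* (0.979) and *Egfl6* (0.975). *Wnt5a* was most like *Gja1* (0.987), the gap junction protein connexin 43, *Piga* (0.977) and *Antxr2* (0.976). For *Wnt16* these were *Smcr8* (0.972), *Tbc1d23* (0.971) and *Hebp1* (0.96), for *Wnt3* *1700025G04Rik* (0.989), *Ivns1abp* (0.984) and *Fth1* (0.98), and for *Wnt4* *Man1c1* (0.984), *Syk* (0.982) and *Taf7* (0.979). For *Wnt7b* they were *Rac3* (0.978), *Gna15* (0.968) and *Zfp667* (0.965), for *Wnt10a* *Caskin2* (0.984), *Dcaf1* (0.98) and *Znrf1* (0.979), and for *Wnt10b* *Zkscan3* (0.972), *Qsox2* (0.96) and *Rhbdl1* (0.959). Among the ligands themselves *Wnt3* and *Wnt4* were the most alike (0.954).

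The rest of the Wnt pathway was counted by fixed lists. Of 3 ligand-processing genes, 1 was higher and 1 lower than at D0 at each of the 4 timepoints, against 5.79% to 18.3% of all genes called higher and 4.1% to 25.1% called lower. *Porcn* was at 8.29 and 5.71 TPM at D0, 15.7 in the mean at W1, 19.3 and 24.8 at W2, 21.5 and 31.2 at W6, and 31.3 and 35.4 at W12, so that all later libraries were above D0. Its log2 change was 1.08 (adjusted P = 0.022) at W1 and 2.12 (SE 0.23, adjusted P = 0.000263) at W12. The W1 call of *Porcn* was lost without D0 replicate 2, W1 replicate 1 or W1 replicate 2 (adjusted P up to 0.13). *Wls* was at 205 and 205 TPM at D0, 127 and 119 at W1, 139 and 134 at W2, 91.4 and 87.6 at W6, and 100.4 and 97.8 at W12, with all later libraries below D0. Its log2 change was −0.73 (adjusted P = 0.00584) at W1 and −1.04 (SE 0.12, adjusted P = 0.000269) at W12. The W1 call of *Wls* was lost without W1 replicate 2 (adjusted P = 0.0715) and the W2 call without either W2 library (adjusted P up to 0.113). *Notum*, which removes the lipid, was not called.

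Of 16 Wnt receptor genes, 13 were tested. At W1, 4 were higher (*Fzd3*, *Fzd7*, *Lrp6* and *Ryk*), against 5.79% of all genes called higher, and at W2, 4 were higher (*Fzd1*, *Fzd3*, *Fzd7* and *Ryk*), against 9.06%, and none was lower. At W6, 2 were higher (*Fzd1* and *Fzd7*), against 18.3%, and 4 lower (*Fzd8*, *Fzd10*, *Ptk7* and *Ror1*), against 14.1%. At W12, 9 of the 13 were lower, against 25.1%, and none higher. After median-ratio scaling the W1 call of *Ryk* and the W12 calls of *Fzd1*, *Lrp6* and *Ryk* were lost, and after quantile scaling the W1 and W2 calls of *Fzd3* and the W12 calls of *Fzd1* and *Lrp6*. With any 1 library left out, 1 of the 4 calls held at W1 (*Fzd7*), 3 of 4 at W2 (*Fzd1*, *Fzd7* and *Ryk*), 2 of 6 at W6 (*Fzd7* and *Fzd10*) and 5 of 9 at W12 (*Fzd2*, *Fzd10*, *Lrp5*, *Ptk7* and *Ror1*). *Fzd7* was at 8.10 and 6.64 TPM at D0, 38.9 and 37.4 at W1, 60.0 and 52.1 at W2, 35.8 and 25.8 at W6, and 5.70 and 7.86 at W12. Its log2 change was 2.77 (SE 0.21, adjusted P = 0.000151) at W2 and −0.11 (adjusted P = 0.695) at W12. *Fzd10* was at 31.6 and 49.4 TPM at D0 and 7.28 and 5.24 at W12 (−2.50, adjusted P = 0.000184), and the pseudokinase receptor *Ptk7* was at 48.7 and 84.9 TPM at D0 and 9.87 and 11.7 at W12 (−2.47, adjusted P = 0.00144).

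Of 7 R-spondins and their LGR receptors, which raise Wnt receptor levels at the cell surface, 3 were tested. *Lgr4* was at 12.8 and 20.6 TPM at D0, 42.9 and 35.1 at W1, 53.9 and 44.4 at W2, 28.8 and 22.3 at W6, and 9.09 and 7.96 at W12. It was higher at W1 (1.21, adjusted P = 0.0162) and W2 (1.54, adjusted P = 0.00418) and lower at W12 (−0.86, adjusted P = 0.0203). It was the only 1 of the 3 called at W1 and W2, against 5.79% and 9.06% of all genes called higher, and 2 of the 3 were lower at W12, against 25.1%. The W1 call of *Lgr4* was lost without either W1 library (adjusted P up to 0.107), and the W12 call without D0 replicate 2 or either W12 library (adjusted P up to 0.119) and under quantile scaling. *Lgr6* was lower at W12 (−1.70, adjusted P = 0.013), which was lost without D0 replicate 2 or W12 replicate 1 (adjusted P up to 0.0992).

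Of 18 secreted or membrane-bound inhibitors, 9 were tested. *Dkk3* and *Sostdc1*, which encodes a secreted antagonist of Wnt and BMP, were the only 2 called at W1 and at W2, both higher, against 5.79% and 9.06% of all genes. At W6 both were again higher, against 18.3%, and 3 were lower (*Kremen1*, *Rnf43* and *Znrf3*), against 14.1%, of which the call of *Sostdc1* alone held with any 1 library left out. *Dkk3* was at 4.64 and 16.0 TPM at D0, 82.9 and 84.0 at W1, 73.4 and 55.3 at W2, 27.9 and 24.8 at W6, and 24.3 and 26.5 at W12. *Dkk3* changed by 3.11 (SE 0.42, adjusted P = 0.00269) at W1 and 1.43 (adjusted P = 0.0232) at W12, where the call was lost without either W12 library (adjusted P up to 0.106). *Sostdc1* was 2.69 higher at W1 (adjusted P = 0.00238) and W2 (adjusted P = 0.00175), and −0.07 (adjusted P = 0.891) at W12. At W12, 2 inhibitors were higher (*Dkk3* and *Wif1*), against 17.9% of all genes, and 5 were lower (*Apcdd1*, *Kremen1*, *Kremen2*, *Rnf43* and *Znrf3*), against 25.1%. *Wif1* was at 33.8 TPM in W6 replicate 2 but 1.03 in W6 replicate 1, at 13.8 and 20.1 at W12 and under 1 TPM at D0, W1 and W2. The 3 libraries with the higher levels of *Wif1* were also those with the higher levels of *Dcn*. Its W12 call (3.83, adjusted P = 0.0158) was lost without any 1 library of D0 or W12 (adjusted P up to 0.0883). The W12 calls of *Apcdd1*, *Kremen1*, *Rnf43* and *Znrf3* held with any 1 library left out.

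Of 17 genes of intracellular transduction, 16 were tested. By limma none was called at W1, where 7 had an unadjusted p under 0.05 and none was called under either scaling, and 3 were higher at W2 (*Apc*, *Tcf7l1* and *Tcf7l2*), against 9.06% of all genes. Each of the 3 W2 calls was lost without D0 replicate 1 or either W2 library, that of *Tcf7l2* also under median-ratio scaling and that of *Tcf7l1* under quantile scaling. At W6, 2 were higher (*Ctnnb1* and *Tcf7*), against 18.3%, and 1 lower (*Pygo1*), against 14.1%, and none of the 3 calls held with any 1 library left out. At W12, 11 of the 16 were lower, among them the Dishevelled genes *Dvl1*, *Dvl2* and *Dvl3*, against 25.1%, and 9 of the 11 held with any 1 library left out. The W12 call of *Apc* was lost under both scalings. *Ctnnb1*, the gene of β-catenin, was at 205 and 188 TPM at D0 and 211 and 229 at W12 (0.16, adjusted P = 0.322). Its W6 call (0.44, adjusted P = 0.0273) was lost without D0 replicate 2 or either W6 library (adjusted P up to 0.0819) and under quantile scaling.

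Of 15 feedback and target genes of the pathway, 10 were tested. *Axin2*, a widely used readout of β-catenin signalling, was at 6.61 and 12.1 TPM at D0, 11.4 and 11.8 at W1, 8.77 and 8.999 at W2, 2.54 and 4.61 at W6, and 1.26 and 1.19 at W12. Its W1 and W2 libraries lay within the range of D0 and its W6 and W12 libraries below it. *Axin2* changed by 0.33 (adjusted P = 0.536) at W1, −0.02 (adjusted P = 0.981) at W2, −1.17 (adjusted P = 0.0181) at W6 and −2.17 (SE 0.30, adjusted P = 0.000778) at W12. The W6 call of *Axin2* was lost without D0 replicate 2 or W6 replicate 1 (adjusted P up to 0.11). *Nkd2*, an intracellular antagonist of the pathway, was at 0.403 and 0.206 TPM at D0, 7.57 and 7.39 at W1, 24.7 and 14.1 at W2, 49.9 and 114 at W6, and 18.4 and 32.7 at W12. Every later library was above D0, with log2 changes of 2.70 (adjusted P = 0.00512) at W1, 5.88 (adjusted P = 7.08e-05) at W6 and 4.30 (SE 0.42, adjusted P = 0.000132) at W12. *Bmp4*, a gene of BMP signalling, was at 74.9 and 66.8 TPM at D0 and 8.35 and 8.15 at W12 (−2.96, adjusted P = 0.00132). *Myc* was lower at W1 (−1.77, adjusted P = 0.0461), W6 (−2.90, adjusted P = 0.00249) and W12 (−3.10, adjusted P = 0.00118), and its W1 call was lost without D0 replicate 2 or W1 replicate 2 (adjusted P up to 0.289) and under quantile scaling. Of the rest, *Rnf43* and *Znrf3* were lower at W6 and W12, and *Tcf7* was higher at W6. In all, 1 of the 10 was higher and 1 lower at W1, against 5.79% and 4.1% of all genes, and 1 was higher and 1 lower at W2, against 9.06% and 6.64%. At W6, 2 were higher and 5 lower, against 18.3% and 14.1%, and at W12, 1 was higher and 5 lower, against 17.9% and 25.1%. With any 1 library left out, all 6 calls of the list at W12 and 3 of its 7 at W6 (*Bmp4*, *Myc* and *Nkd2*) held. *Lef1*, *Sp5*, *Nkd1*, *Dkk4* and *Edar* had a mean under 1 TPM. No gene of these lists that was called against D0 changed sign under median-ratio or quantile scaling.

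**Figure D5:**
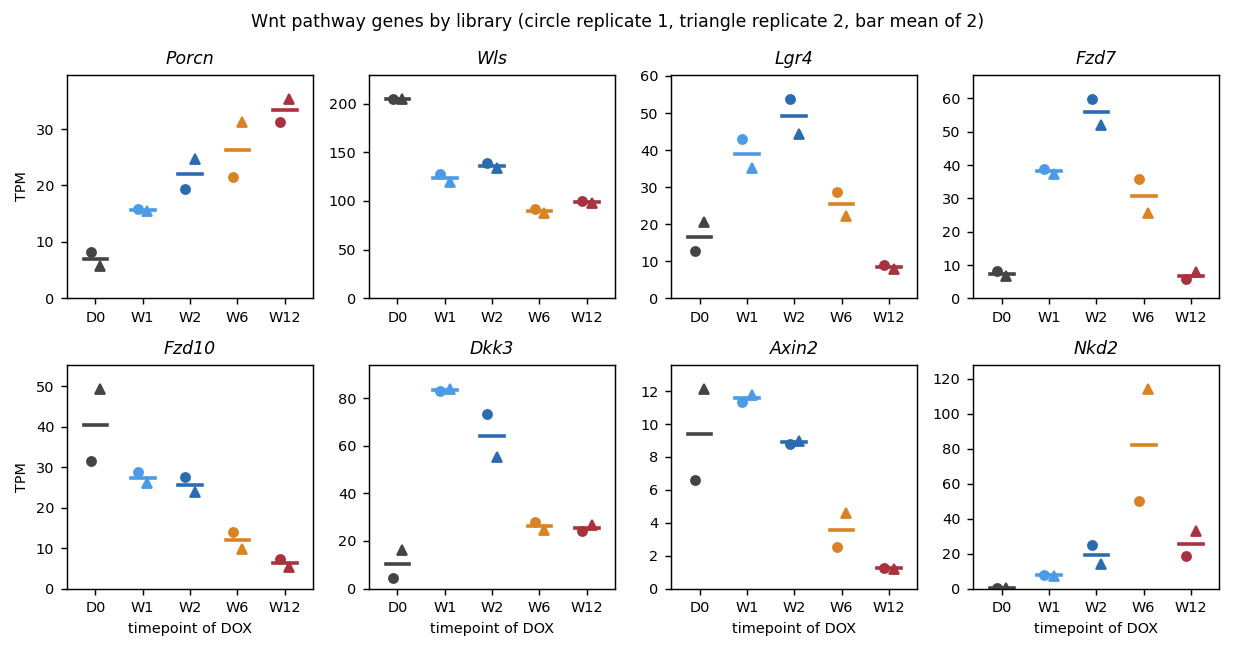
TPM of 8 Wnt pathway genes (y axes linear from 0, each panel with its own range) in the 2 libraries of each timepoint, with replicate 1 as a circle, replicate 2 as a triangle and the mean as a bar. *Porcn* rose to 31.3 and 35.4 TPM at W12 while *Wls* was lower at every later timepoint, *Fzd7* and *Lgr4* were highest at W2, and *Axin2* was at 1.26 and 1.19 TPM at W12.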

How the data were processed

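EpdSCs were sorted by flow cytometry into TRI Reagent, and libraries were made with a SMARTer low-input RNA kit and sequenced on NextSeq or NovaSeq. For the 10 time-course libraries the deposited values are TPM per gene, which the authors obtained from trimmed reads with Salmon 1.4.0 run on GENCODE M24 (GRCm38) with the transgene added, followed by gene-level summing with Tximport 1.12.3. The TPM of each library sum to 1000000, so depth and counting error are unknown. A second table, of the authors' DESeq2 comparison in embryonic hair placode cells (4 libraries), holds mean normalized counts, fold changes, test statistics and p-values and was not used.

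The 13110 genes that averaged 1 TPM or more were fitted on log2(TPM + 1) with limma 3.58.1 in R 4.3.3, 1 mean per timepoint over all 10 libraries, eBayes with trend, and Benjamini-Hochberg adjustment. The study used DESeq2 on counts, which TPM do not permit. With 2 replicates per timepoint, all 10 libraries shared 1 estimate of the spread. The script was tested on simulated data.

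All members were described. Of each pathway list at most the 5 genes with the largest change at W12 and the 3 largest at W2 among those called were named by rule. Other pathway genes, among them *Ctnnb1*, *Tcf7*, *Notum*, *Fzd2*, *Fzd3*, *Lrp6*, *Kremen2* and *Dvl1*, were named after their values were seen, to spell out the counts. Members and lists were chosen with earlier results of these data known. Gene positions came from GENCODE M21, of the same build, and promoters from RefSeq. Fits were repeated with a pseudocount of 0.1, without the filter, with median-ratio and quantile scaling, on only the compared libraries, with a replicate block, and without each library in turn. Added after seeing the data were fits without the W12 libraries and with crossed replicate numbers.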

Additional observations from a re-analysis of the deposited data

How the results depend on the processing

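The F test called 8 or 9 ligands in every alternative fit, and no call of a single ligand changed direction. The counts against D0 stayed within 1.5 times the reported one in every alternative, except that W1 against D0, with 6 called, ranged from 3 to 5 with 1 library left out. Without the filter on the mean it gave 4, of which 1 is *Wnt7a*, not tested otherwise, so that 3 of the 9 kept their call at W1. That fit also ended the calls of *Wnt10a* and *Wnt10b* at W2, of *Wnt5a* and *Wnt10b* at W6, and of *Wnt5a* from W2 to W6. W6 against W2, with 3 called, gave 1 with only the 4 compared libraries and from 1 to 4 with 1 library left out. W12 against W6, with 2 called, gave 0 without the filter on the mean, 4 with median-ratio scaling, 0 with only the 4 compared libraries and from 0 to 3 with 1 library left out. The causes were not tested. Changes that reversed were all uncalled in the reported fit. *Wnt16* at W1 was −0.029 with median-ratio scaling. With 1 library left out the log2 change ranged from −0.29 to 0.15 for *Wnt10a* at W1, from −0.060 to 0.20 for *Wnt16* at W1, from −0.078 to 0.30 for *Wnt16* at W2 and from −0.15 to 0.23 for *Wnt16* from W1 to W2. It ranged from −0.21 to 0.14 for *Wnt3a* from W1 to W2, from −0.12 to 0.094 for *Wnt3a* and from −1.34 to 0.44 for *Wnt3* from W2 to W6, and for *Wnt10b* from −0.45 to 0.19 from W2 to W6 and from −0.56 to 0.079 from W6 to W12. Over all ligands and comparisons, 55 alternative values lost a call and 10 gained one. With pseudocount 0.1, *Wnt10b* at W2 was −1.87 (limma adjusted P = 0.0929). Without the W12 libraries, *Wnt10b* at W2 (adjusted P = 0.0615) and *Wnt5a* from W2 to W6 (adjusted P = 0.0642) were not called.

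Replicate numbers marked no shared animal, and no pairing was used in the reported fit. The correlation of same-numbered deviations lay between −0.129 and 0.182. With 2 libraries per timepoint this cannot decide whether same-numbered libraries shared a batch. With the replicate block the called ligands against D0 were 6 (W1), 7 (W2), 9 (W6) and 8 (W12), and there were 0 from W1 to W2, 3 from W2 to W6, 2 from W6 to W12 and 9 by the F test. With crossed numbers in the block, tried where the correlation was under −0.1, the counts were 6 at W1 and 9 at W6 against D0 and 1 from W6 to W12.

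TPM give no depth, so the precision of low ligands such as *Wnt7a* and *Wnt10b* is unknown, and 2 libraries per timepoint let 1 library decide calls near the threshold.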
